A study of Mus musculus with 24 samples.

Results

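Organoids grown from irradiated mouse salivary glands carried less Igfbp5 and Igfbp2 RNA and more Igfbp7 RNA than organoids from sham-irradiated glands, averaged over the days and passages studied. Only the Igfbp5 difference stayed significant in all alternative fits run. The genes described here are 9 of the insulin-like growth factor (IGF) system: the binding protein genes Igfbp2, Igfbp3, Igfbp4, Igfbp5, Igfbp6 and Igfbp7 and the receptor genes Igf1r, Igf2r and Insr. The members are set by symbol, with earlier results of these data known, and they are 9 of the 47643 genes in the count files. Of these, 8 passed the filter on low counts and are among the 10563 genes tested. Igfbp6 did not pass it.

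The organoids are epithelial cultures grown in Matrigel from salivary gland stem and progenitor cells of the C57BL/6 strain. They came from glands taken 14 or 90 days after irradiation (IR) or sham irradiation (sham). Passages 1 and 2 of the cultures were profiled, so there were 8 groups of 3 libraries: IR and sham at day 14 and passage 1, at day 14 and passage 2, at day 90 and passage 1, and at day 90 and passage 2. All groups shared the strain and a medium with EGF, FGF2, insulin, dexamethasone and the ROCK inhibitor Y-27632. The insulin in the medium is a ligand of the insulin receptor, the product of Insr, and was the same for IR and sham. The labels give no sex, age or radiation dose, and whether replicates are separate animals is not stated. The p-values therefore measure only how far these libraries spread, which may be technical.

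IGF1 and IGF2 are secreted factors that act through IGF1R, a receptor tyrosine kinase closely related to the insulin receptor INSR. IGF2R, the cation-independent mannose 6-phosphate receptor, has no kinase domain and takes IGF2 to the lysosome. The binding proteins hold IGFs outside the cell, and proteases such as PAPP-A release them. In the mouse salivary gland, IGF1 has been studied as a factor that preserves the secretion of saliva after irradiation.

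Gene counts were 1151608 to 3189466 per library, so low levels rest on few reads. Levels are given as CPM, which are counts divided by the TMM-scaled size of the library. The 9 epithelial markers summed to 3975 to 10549 CPM in every library. The 9 mesenchymal markers summed to at most 3.85 CPM, with Col3a1, Pdgfrb and Thy1 at 0 in all 24 libraries. The 6 endothelial markers summed to at most 2.06 CPM and the 7 immune markers to at most 11.5 CPM. In bulk RNA, fewer cells of a type and less RNA per cell cannot be told apart. At day 14 and passage 2, IR replicate 3 and sham replicate 1 stood apart from their groups in a list of 12 interferon response genes, which summed to 1240 CPM in that IR library and 55.1 CPM in that sham library. Sham replicate 2 of passage 1 was likewise the highest of its group in this list, with 1260 CPM at day 14 and 809 CPM at day 90. Values without the libraries that stood apart are given where they move a result.

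The ligand genes of the system were near the limit of detection. Igf1 had 63 counts in all, spread over 20 of the 24 libraries, and Igf2 had 4 counts. Ins1, Ins2 and Igfbp1 had no count in any library. A count of 0 allows a level of up to 0.776 to 2.83 CPM (3 counts, counting error only), depending on the library. Igfbp6, whose protein prefers IGF2 over IGF1, had 1 count in 1 IR library of day 14 and passage 1 and 0 counts in the other 23, so no fold change is given for it.

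Setting IR against sham organoids asks whether irradiation of the gland left a difference in the cultures grown from it. Averaged over the 4 strata of day and passage, 3 of the 8 tested members were called at an adjusted p under 0.05 in edgeR's quasi-likelihood test with Benjamini-Hochberg adjustment over all tested genes. Igfbp5 and Igfbp2 were lower and Igfbp7 was higher in IR organoids. In the same comparison, 11% of all tested genes were called, 6.09% higher and 4.91% lower in IR. Igfbp4 and Igf2r also had an unadjusted p under 0.05, which makes 5 of the 8 members, against 25.9% of all tested genes. The median log2 fold change of the members was 0.18, against 0 over all tested genes. The mean of the 4 strata weighs them equally and treats the 24 libraries as independent, although passage 2 cultures descend from passage 1 cultures.

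**Figure D1:**
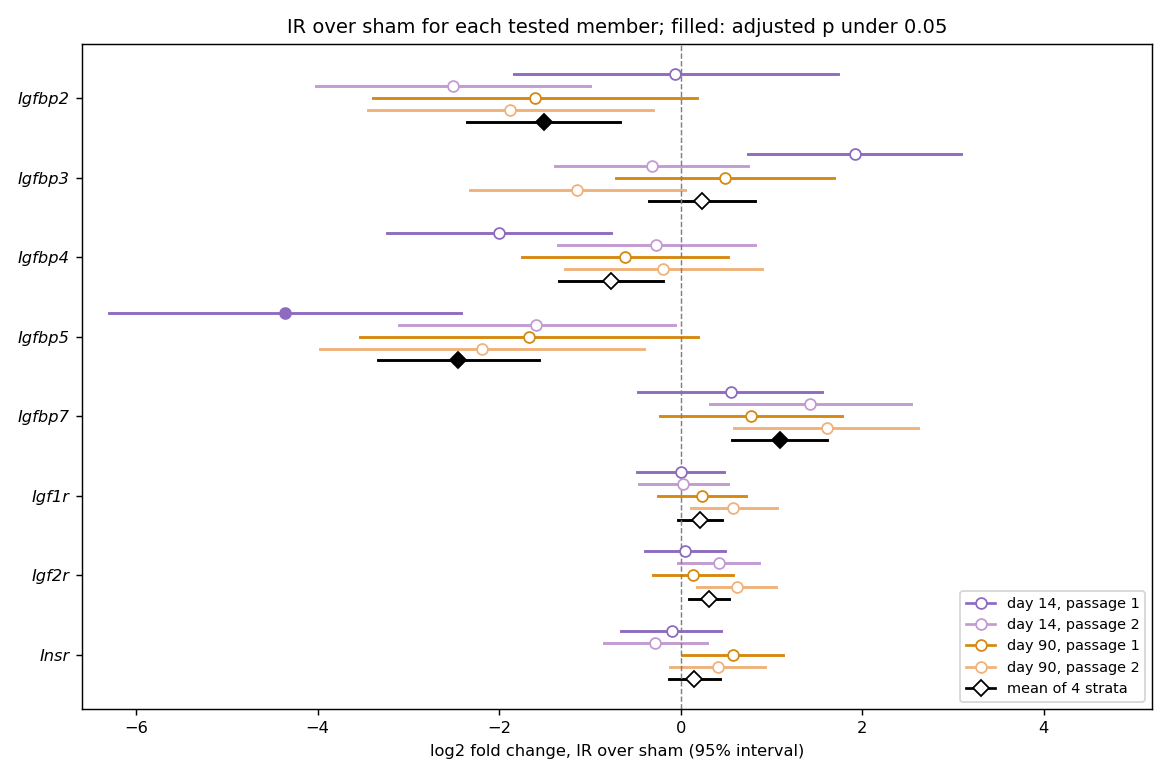
Log2 fold change of IR over sham for the 8 tested members, in each stratum of day and passage and as the mean of the 4 strata, with 95% intervals from the fit; filled symbols have an adjusted p under 0.05. Igfbp5 lies left of 0 in all 4 strata and Igfbp7 right of 0, while the receptors lie between −0.28 and 0.62.

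Igfbp5 (ENSMUSG00000026185) encodes a conserved binding protein that also attaches to the extracellular matrix. Its promoter is shown because it is the member with the largest change after IR. Promoter windows are RefSeq's, on GRCm38.p6, from 250 bases before to 50 after the start of the gene, written 5′ to 3′ on the strand of the gene. The Igfbp5 window is chr1:72874816-72875115 on the minus strand, with 56.3% GC.
Igfbp5: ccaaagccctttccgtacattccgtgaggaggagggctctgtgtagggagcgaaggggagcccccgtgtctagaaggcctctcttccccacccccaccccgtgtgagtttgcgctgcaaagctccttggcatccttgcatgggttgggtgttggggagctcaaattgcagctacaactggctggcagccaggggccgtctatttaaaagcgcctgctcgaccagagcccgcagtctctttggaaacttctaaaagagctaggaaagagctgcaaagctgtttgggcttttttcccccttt
No capitals appear in it, since none of the 7 motifs searched on both strands was found in these 300 bases. The first was TATAAA, the TATA box, which 13.6% of 32851 RefSeq promoter windows of this length hold. The GC box, written GGGCGG, is in 35.7% of these windows, and TGANTCA, the letters of an AP-1 site, is in 7.81% of them. AGAACA is a core bound by the glucocorticoid receptor, which dexamethasone activates, and 19% of the windows hold it. TGTTTAC, the core of a FOXO site, is in 3.65% of the windows. GGCGCC, an element that SMAD proteins can bind, is in 11.9% of the windows. The last was GAAA followed by any 2 bases and GAAA again, as in interferon-stimulated elements, in 3.44% of the windows. No motif of the list holds another one.

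Igfbp5 at day 14 and passage 1 had 0.962, 3.78 and 17.8 CPM in IR organoids, against 305, 75.7 and 124 CPM in sham organoids. The lowest sham library was above the highest IR library. The IR values rest on 2, 4 and 38 counts. Sham replicate 1, with 305 CPM, had the highest share of reads on no gene of all libraries, 26.5% against a median of 15.9%. The log2 fold change was −4.36 (SE 0.94, 95% interval −6.30 to −2.42, adjusted p = 0.0468), which is 20.5-fold lower in IR. Igfbp5 was the 1 member called in this stratum, where 0.341% of all tested genes were called and 0.0473% were called lower. With Igfbp3 and Igfbp4, 3 of the 8 members had an unadjusted p under 0.05, against 11% of all tested genes. The call was lost without sham replicate 1 (−3.63, adjusted p = 0.248), 2 (−4.71, adjusted p = 0.0784) or 3 (−4.53, adjusted p = 0.114), and without IR replicate 1 (−3.77) or 2 (−4.14, adjusted p = 0.291 for each). It held without IR replicate 3 (adjusted p = 0.0165), and the value, −6.38, was then the farthest from 0.

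Igfbp5 at day 14 and passage 2 was 79.1, 17.9 and 142 CPM in IR organoids and 133, 281 and 320 CPM in sham organoids. Here IR replicate 3 lay above sham replicate 1, and the log2 fold change was −1.59 (adjusted p = 0.73, SE 0.74). It was −2.61 (adjusted p = 0.163) without both of these libraries. They were left out after the data were seen, so the difference was bound to widen. Without 1 library it ran from −2.31 to −1.14. In passage 1 organoids of day 90 Igfbp5 was 23.2, 5.29 and 5.57 CPM in IR organoids and 23.1, 34.9 and 54.3 CPM in sham organoids, a log2 fold change of −1.67 (adjusted p = 0.444, SE 0.90). The groups overlapped through IR replicate 1, without which the value was −2.81 (adjusted p = 0.29). Over all alternatives run, this value ran from −2.81 to −0.38, and its highest value without 1 library was −1.30. In passage 2 organoids of day 90 Igfbp5 was 17.9, 0.836 and 6.89 CPM in IR organoids and 7.79, 73.3 and 43.9 CPM in sham organoids, a log2 fold change of −2.19 (adjusted p = 0.163, SE 0.86). There 1 sham library, replicate 1, was as low as the IR libraries. The value ran from −3.40 without IR replicate 1 to −1.49 without sham replicate 2, with no call.

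The mean Igfbp5 difference over the 4 strata was −2.45 (SE 0.43, 95% interval −3.34 to −1.56, adjusted p = 0.00113), 5.46-fold lower in IR. It stayed called without each of the 24 libraries in turn and without each stratum in turn. Over all libraries Igfbp5 ranged 382-fold, from 0.836 to 320 CPM, the widest range of the 8 tested members. Markers of myoepithelial cells, the contractile cells around the secretory units, summed to less in IR than in sham organoids, except at day 90 and passage 2. The 6 markers summed to 4.33 to 8.91 CPM in IR and 24.4 to 36.5 CPM in sham organoids at day 14 and passage 1, and to 1.99 to 9.78 CPM in IR and 14.2 to 17.7 CPM in sham organoids at day 14 and passage 2. At day 90 they were 4.63 to 5.67 CPM in IR and 6.77 to 12.7 CPM in sham organoids at passage 1. At passage 2 of day 90, they were 3.34 to 14.2 CPM in IR and 5.63 to 9.12 CPM in sham organoids, and the groups overlapped. Of the 6, only Acta2 and Mylk passed the filter on low counts, and Actg2 was at 0 in every library. At day 14 the mean of Igfbp5 was 7.52 CPM at passage 1 and 79.8 CPM at passage 2 in IR organoids, and 168 and 244 CPM in sham organoids. At day 90 this mean was 11.4 CPM at passage 1 and 8.53 CPM at passage 2 in IR organoids, and 37.4 and 41.7 CPM in sham organoids. The part of these markers in the Igfbp5 result was not tested.

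**Figure D2:**
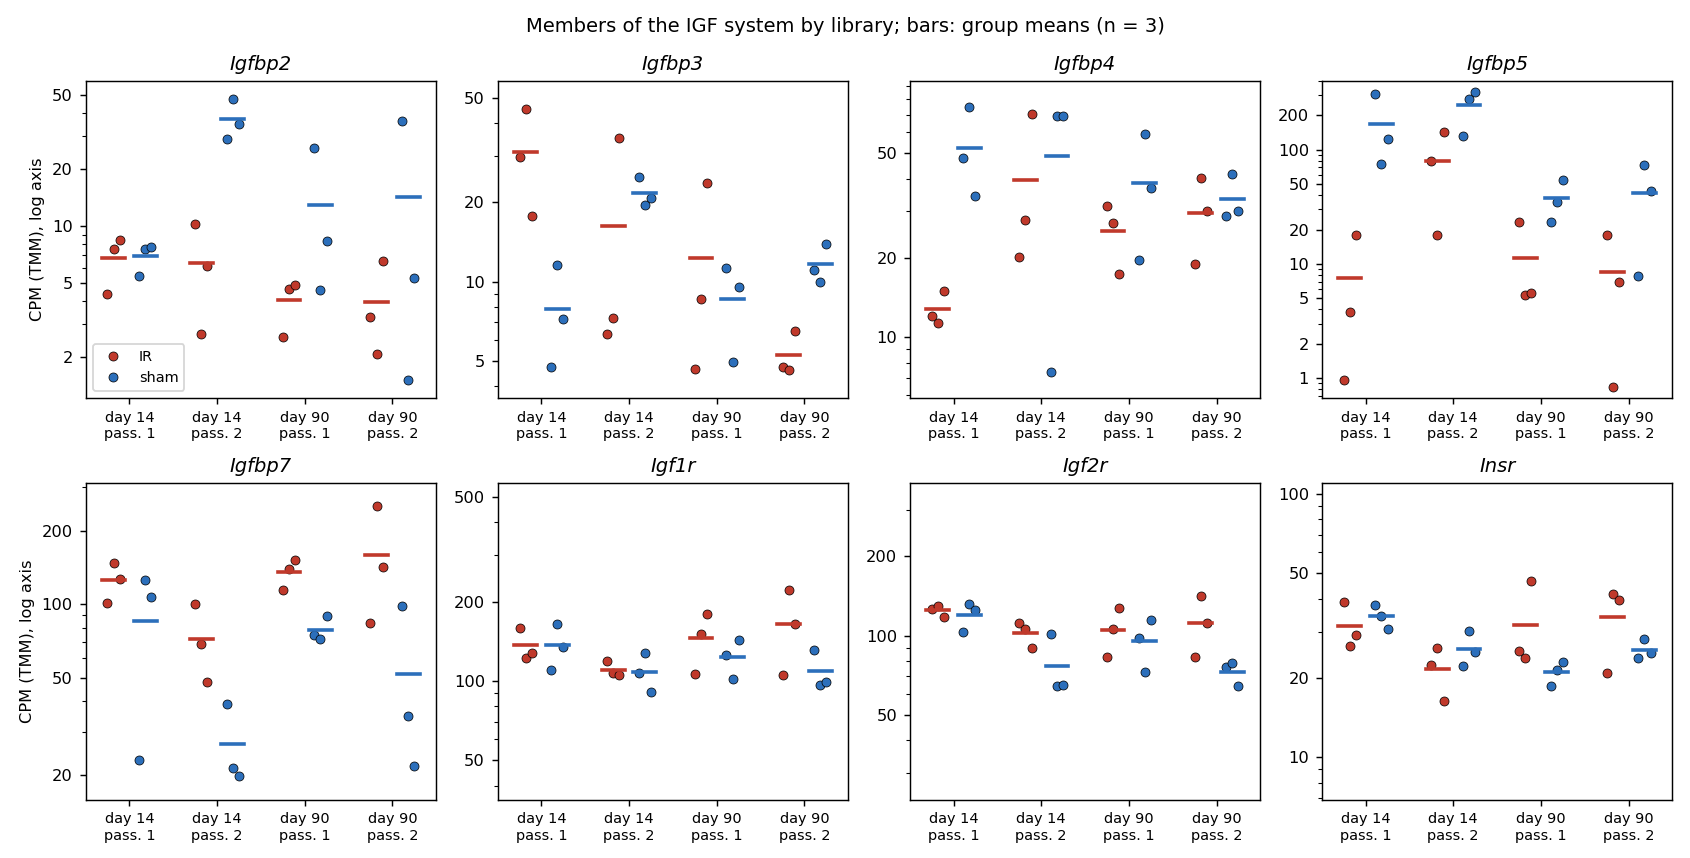
CPM per library (points, log axes) of the 8 tested members in IR and sham organoids of each day and passage, with bars at the group means (n = 3). The 3 IR libraries of day 14 and passage 1 lie between 0.962 and 17.8 CPM for Igfbp5, all below the sham libraries, and the panels of Igf1r, Igf2r and Insr span the least.

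Igfbp2 (ENSMUSG00000039323) encodes a binding protein with an integrin-binding motif. Igfbp2 and Igfbp5 are neighbours in the RefSeq gene order of chromosome 1, on opposite strands. Their log2 CPM had a Pearson correlation of 0.40 over the 24 libraries, and shared regulation was not tested. The Igfbp2 window, shown beside that of its neighbour because both genes were lower in IR, is chr1:72824230-72824529 on the plus strand, with 67% GC. Capitals mark 3 copies of GGGCGG and 1 of AGAACA.
Igfbp2: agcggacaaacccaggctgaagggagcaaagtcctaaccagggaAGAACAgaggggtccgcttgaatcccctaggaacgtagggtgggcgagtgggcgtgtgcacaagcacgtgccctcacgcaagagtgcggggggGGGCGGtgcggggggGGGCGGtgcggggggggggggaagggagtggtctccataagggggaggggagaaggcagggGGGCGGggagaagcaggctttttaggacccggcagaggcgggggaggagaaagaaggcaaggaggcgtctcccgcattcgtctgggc
RefSeq lists a second Igfbp2 window, with 1 match to TGANTCA.

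Igfbp2 at day 14 and passage 2 had 10.3, 2.65 and 6.16 CPM in IR organoids, against 29.0, 47.2 and 34.9 CPM in sham organoids. All sham libraries were above all IR libraries. The log2 fold change was −2.51 (SE 0.73, 95% interval −4.02 to −1, adjusted p = 0.513), so it was not called, as was the case for nearly all genes of this stratum, where 0.0189% were called and 0 of the 8 members. Igfbp2 at day 14 and passage 1 was 4.33, 7.56 and 8.44 CPM in IR organoids and 5.40, 7.57 and 7.70 CPM in sham organoids, a log2 fold change of −0.06 (95% interval −1.84 to 1.73).

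At day 90, Igfbp2 was high in sham replicate 1 of both passages. At passage 1 it was 2.58, 4.63 and 4.87 CPM in IR organoids and 26, 4.58 and 8.28 CPM in sham organoids, a log2 fold change of −1.61 (adjusted p = 0.44, SE 0.86). At passage 2 it was 3.27, 2.09 and 6.49 CPM in IR organoids and 36.2, 1.52 and 5.26 CPM in sham organoids, a log2 fold change of −1.88 (adjusted p = 0.174, SE 0.76). Without sham replicate 1 the value became −0.73 (adjusted p = 0.78) at passage 1 and 0.24 at passage 2. The mean of the 4 strata was −1.51 (SE 0.40, 95% interval −2.35 to −0.67, adjusted p = 0.0186), 2.85-fold lower in IR. It was −0.76 and no longer called (adjusted p = 0.0637) without both sham replicates 1 of day 90. It was also not called as a mean of 3 strata without day 14 passage 2 (−1.18, adjusted p = 0.128), day 90 passage 1 (−1.48, adjusted p = 0.062) or day 90 passage 2 (−1.39, adjusted p = 0.121).

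Igfbp7 (ENSMUSG00000036256) encodes a secreted relative of the family that binds IGFs weakly. Its promoter is shown as that of the 1 member called higher in IR. The window is chr5:77407996-77408295 on the minus strand, with 73.3% GC, and the capitals mark 4 matches to GGGCGG, 1 of them on the opposite strand.
Igfbp7: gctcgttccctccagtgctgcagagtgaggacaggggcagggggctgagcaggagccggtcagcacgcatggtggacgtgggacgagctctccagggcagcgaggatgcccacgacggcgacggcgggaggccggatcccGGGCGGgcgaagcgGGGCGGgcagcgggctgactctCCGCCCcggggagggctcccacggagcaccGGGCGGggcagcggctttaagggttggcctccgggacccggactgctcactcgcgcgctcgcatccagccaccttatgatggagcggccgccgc
Of the 9 members 8 had a window. A match to a motif says nothing of binding.

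Igfbp7 at day 14 and passage 2 was 99.8, 69.0 and 48.2 CPM in IR organoids and 39.2, 21.3 and 19.8 CPM in sham organoids. In passage 1 organoids of day 90 it was 114, 139 and 152 CPM in IR organoids and 74.5, 72.2 and 89.5 CPM in sham organoids. In each of these strata every IR library was above every sham library, with log2 fold changes of 1.43 (adjusted p = 0.63, SE 0.53) and 0.77 (adjusted p = 0.52, SE 0.49). Without IR replicate 3 and sham replicate 1 the value at day 14 and passage 2 was 2.04 (adjusted p = 0.13). These libraries were left out after the data were seen, so the difference was bound to widen. Without 1 library this value ran from 1.12 to 1.80. At day 90 and passage 1 the value ran from 0.31 to 0.88 over all alternatives run. In passage 1 organoids of day 14 Igfbp7 was 101, 147 and 127 CPM in IR organoids and 23, 125 and 107 CPM in sham organoids, a log2 fold change of 0.55 (adjusted p = 0.782, SE 0.49). The low sham value was replicate 1, the library with the highest Igfbp5 of its group and the highest share of reads on no gene of all libraries. The sham values of 125 and 107 CPM lay within the range of the IR values. Without each library in turn, the Igfbp7 difference of this stratum ran from 0.10 to 0.92 (adjusted p 0.655 to 0.986).

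Igfbp7 at day 90 and passage 2 was 83.9, 251 and 142 CPM in IR organoids and 98.2, 34.7 and 21.8 CPM in sham organoids. The log2 fold change was 1.61 (SE 0.49, 95% interval 0.59 to 2.62, adjusted p = 0.0603). Leaving out sham replicate 1 (2.47, adjusted p = 0.0136) or IR replicate 1 (1.92, adjusted p = 0.0157) made it a call, and the lowest value, without IR replicate 2, was 1.12 (adjusted p = 0.359). No member was called here by edgeR or by DESeq2, 5 of the 8 had an unadjusted p under 0.05, against 18.3% of all tested genes, and 4.92% of all tested genes were called. The mean of the 4 strata was 1.09 (SE 0.25, 95% interval 0.57 to 1.61, adjusted p = 0.00759), 2.13-fold higher in IR, and stayed called without each library in turn. It was not called without the day 90 passage 2 stratum (0.92, adjusted p = 0.0964), or with the share of counts on Gm42418, a ribosomal RNA repeat, as a covariate (0.93, adjusted p = 0.0531). That share was 11.8% to 29.0% of the counts of a library.

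Igfbp5 and Igfbp7 ran in opposite directions across libraries, with a Pearson correlation of −0.76 of log2 CPM over 24 libraries that share their groups. The ratio of Igfbp7 to Igfbp5 counts was examined after these values were seen, and it is given with no test. These are the member with the largest fall in IR and the 1 member called higher. A separation of IR and sham ratios is therefore partly built in, and the share of other gene pairs that separate was not computed. The ratio at day 14 and passage 1 was 106, 39 and 7.13 in IR organoids, against 0.0754, 1.65 and 0.860 in sham organoids. In passage 2 organoids of day 14 it was 1.26, 3.85 and 0.338 in IR organoids, against 0.295, 0.0758 and 0.0620 in sham organoids. In each of these strata all IR ratios were above all sham ratios.

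The ratio at day 90 and passage 1 was 4.93, 26.2 and 27.4 in IR organoids, against 3.22, 2.07 and 1.65 in sham organoids. In passage 2 organoids of day 90 it was 4.70, 300 and 20.6 in IR organoids, against 12.6, 0.473 and 0.496 in sham organoids. The groups separated at passage 1 and overlapped at passage 2 through sham replicate 1. The ratios of 106 and 300 rest on 2 Igfbp5 counts each, with 95% counting intervals of 28.8 to 877 and 82.7 to 2480.

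**Figure D3:**
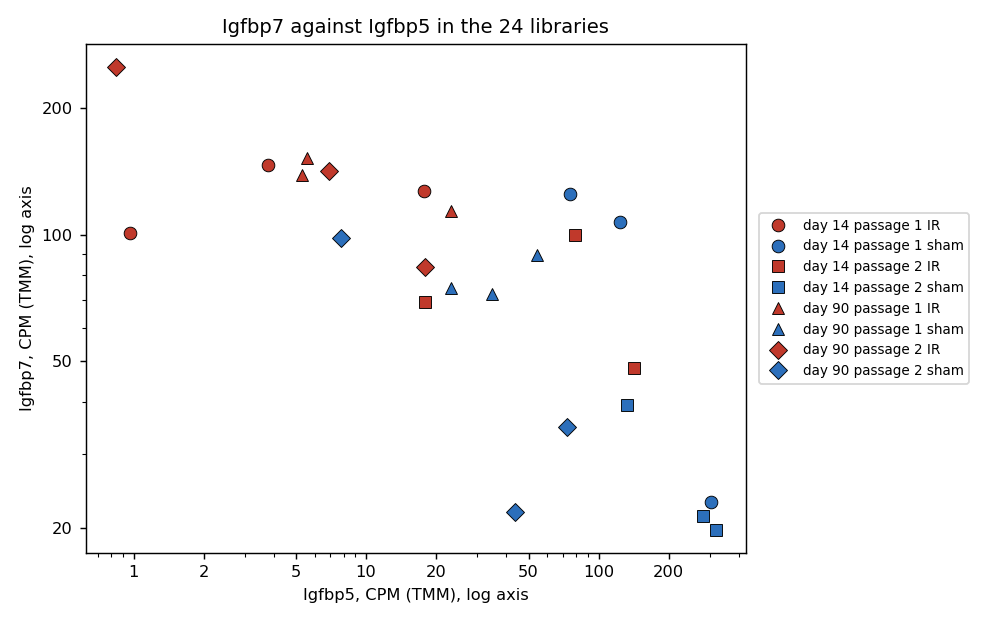
Igfbp7 CPM against Igfbp5 CPM in each of the 24 libraries (log axes), with IR in red and sham in blue and 1 shape per day and passage. Most IR libraries lie towards high Igfbp7 and low Igfbp5, while IR replicates 1 and 3 of day 14 and passage 2 have 79.1 and 142 CPM of Igfbp5. The sham library of day 90 and passage 2 with 98.2 CPM of Igfbp7 and 7.79 CPM of Igfbp5 lies among the IR libraries.

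Igfbp4 (ENSMUSG00000017493) encodes a binding protein known as an inhibitor of IGF action and as a substrate of PAPP-A. Igfbp4 at day 14 and passage 1 was 12, 11.3 and 15 CPM in IR organoids and 47.9, 74.5 and 34.4 CPM in sham organoids. The groups did not overlap, and the log2 fold change was −2 (SE 0.60, 95% interval −3.24 to −0.77, adjusted p = 0.166), 4-fold lower in IR. It was called by DESeq2 (adjusted p = 0.0359) and in a fit of only these 2 groups (adjusted p = 0.0263). Without sham replicate 2, the library with 1260 CPM of interferon genes and the highest Igfbp4 of all, it was −1.65 (adjusted p = 0.423). In this stratum 3 of the 8 members had groups that did not overlap, against 17.2% of all tested genes.

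Igfbp4 at day 14 and passage 2 was 20.1, 27.9 and 70.6 CPM in IR organoids and 7.39, 69.1 and 69.3 CPM in sham organoids. One library of each group lay with the other group, IR replicate 3 and sham replicate 1, the same libraries that stood apart in the interferon genes. The log2 fold change was −0.27 (adjusted p = 0.956, SE 0.52), and −1.53 (adjusted p = 0.0724) without both. These 2 libraries were left out together after the data were seen, so the difference was bound to widen. At day 90 it was −0.61 (SE 0.55) at passage 1 (−0.18 without sham replicate 2), where the IR libraries had 17.4 to 31.5 CPM and the sham libraries 19.7 to 59.1 CPM, and −0.19 (SE 0.52) at passage 2, with 19.0 to 40.1 CPM in IR and 28.8 to 41.6 CPM in sham organoids. The mean of the 4 strata was −0.77 (SE 0.28, 95% interval −1.34 to −0.20, adjusted p = 0.0745). It was called by DESeq2 (−0.78, adjusted p = 0.0411), without day 14 passage 2 sham replicate 1 (−0.89, adjusted p = 0.00889) and without IR replicate 3 of that stratum (−0.96, adjusted p = 0.019). Without both it was −1.09 (adjusted p = 0.000431). Since both lay with the other group in Igfbp4, these fits without them are no separate support for a difference. It was −0.36 (adjusted p = 0.498) as a mean of the other 3 strata without day 14 passage 1, and −0.51 (adjusted p = 0.325) with the Gm42418 covariate.

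At day 14, the summed level of the 12 interferon genes was higher in the libraries with more Igfbp4. It was 49.5 to 66.6 CPM in IR and 123 to 1260 CPM in sham organoids at day 14 and passage 1, and 75.1 to 1240 CPM in IR and 55.1 to 1470 CPM in sham organoids at day 14 and passage 2. At day 90 it was 44.5 to 81.3 CPM in IR and 64.9 to 809 CPM in sham organoids at passage 1, and 232 to 823 CPM in IR and 1050 to 1870 CPM in sham organoids at passage 2. At day 90 and passage 2, Igfbp4 overlapped between the groups and the interferon sums did not. The sham libraries there had 28.8, 41.6 and 30 CPM of Igfbp4 with sums of 1050, 1460 and 1870 CPM. The IR libraries of day 90 and passage 1 had 31.5, 27.1 and 17.4 CPM of Igfbp4 with sums of 76.3, 81.3 and 44.5 CPM. The part of the interferon genes in the Igfbp4 result was not tested.

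**Figure D4:**
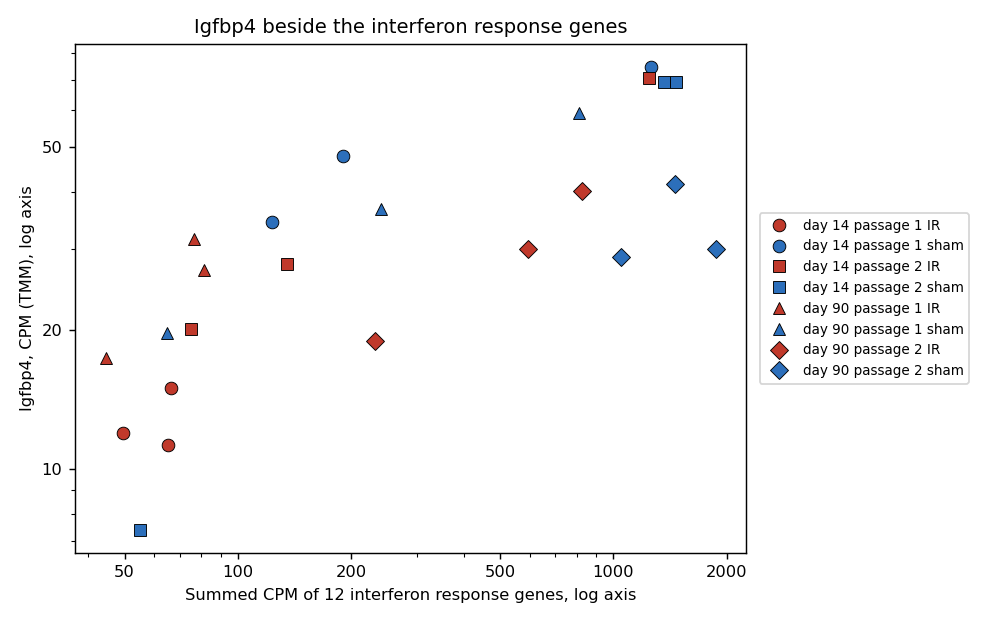
Igfbp4 CPM against the summed CPM of 12 interferon response genes in each of the 24 libraries (log axes), with IR in red and sham in blue and 1 shape per day and passage. At day 14 and passage 2, IR replicate 3 lies with the sham libraries at 70.6 CPM of Igfbp4, and sham replicate 1 lies at the low end at 7.39 CPM.

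Igfbp3 (ENSMUSG00000020427) encodes the main carrier of IGFs in serum, where it forms a complex with the product of Igfals. Igfbp3 at day 14 and passage 1 was 29.8, 45.4 and 17.8 CPM in IR organoids and 4.73, 11.6 and 7.19 CPM in sham organoids. The groups did not overlap, and the log2 fold change was 1.92 (SE 0.57, 95% interval 0.74 to 3.09, adjusted p = 0.164). In passage 2 organoids of day 90 it was 4.76, 4.60 and 6.49 CPM in IR organoids and 11.1, 10.0 and 13.9 CPM in sham organoids. There the groups did not overlap in the other direction, with a log2 fold change of −1.14 (adjusted p = 0.303, SE 0.57).

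Igfbp3 at day 14 and passage 2 was 6.31, 7.30 and 35.1 CPM in IR organoids and 25, 19.5 and 20.7 CPM in sham organoids, a log2 fold change of −0.32 (SE 0.51), and −1.67 without IR replicate 3. In passage 1 organoids of day 90 it was 4.64, 8.59 and 23.7 CPM in IR organoids and 11.3, 4.93 and 9.57 CPM in sham organoids, a log2 fold change of 0.49 (SE 0.58). Both of these strata overlapped, each with IR replicate 3 as its highest library. The mean of the 4 strata was 0.24 (SE 0.28, 95% interval −0.35 to 0.82, adjusted p = 0.642), and it was −0.32 without day 14 passage 1.

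The receptor genes differed less. Igf1r (ENSMUSG00000005533) was between 90.4 and 221 CPM in the 24 libraries, Igf2r (ENSMUSG00000023830) between 64.2 and 141 CPM and Insr (ENSMUSG00000005534) between 16.3 and 46.6 CPM, ranges of 2.44-fold, 2.20-fold and 2.86-fold. No receptor was called in any of the 17 comparisons. Averaged over the 4 strata, the log2 fold change of IR over sham was 0.21 for Igf1r (95% interval −0.03 to 0.46), 0.31 for Igf2r (95% interval 0.09 to 0.53, adjusted p = 0.0636) and 0.15 for Insr (95% interval −0.13 to 0.43). The upper bounds correspond to 1.38-fold, 1.44-fold and 1.35-fold. The Igf2r mean was called without 5 of the 24 libraries in turn, among them day 90 passage 2 IR replicate 1 (0.35, adjusted p = 0.0193), and without the day 14 passage 1 stratum (0.39, adjusted p = 0.0408). It was 0.20 (adjusted p = 0.405) without the day 90 passage 2 stratum, 0.24 (adjusted p = 0.219) with the Gm42418 covariate and 0.24 (adjusted p = 0.164) with total counts.

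Igf2r at day 90 and passage 2 was 82.7, 141 and 112 CPM in IR organoids and 75.8, 78.4 and 64.2 CPM in sham organoids. Every IR library was above every sham library, and the log2 fold change was 0.62 (SE 0.21, 95% interval 0.18 to 1.05, adjusted p = 0.0979). In the same stratum Igf1r was 105, 221 and 165 CPM in IR organoids and 131, 96.4 and 98.8 CPM in sham organoids, a log2 fold change of 0.58 (adjusted p = 0.163, SE 0.23). Igf1r overlapped through IR replicate 1, and without that library both receptor genes were called, Igf1r at 0.82 (adjusted p = 0.0181) and Igf2r at 0.80 (adjusted p = 0.0186). Without IR replicate 2, the highest library, they were 0.30 (adjusted p = 0.679) and 0.41 (adjusted p = 0.487). Igfbp3 and Igf2r were the 2 members of this stratum with groups that did not overlap, against 20.6% of all tested genes.

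Insr was 25.3, 23.8 and 46.6 CPM in IR organoids and 18.6, 21.5 and 23 CPM in sham organoids at day 90 and passage 1. The groups did not overlap, IR replicate 3 was the highest of all libraries, and the log2 fold change was 0.58 (SE 0.27, 95% interval 0.02 to 1.13, adjusted p = 0.372). Without each library in turn, this Insr value ran from 0.21 to 0.74 (adjusted p 0.267 to 0.891). Insr and Igfbp7 were the 2 members of this stratum with groups that did not overlap, against 19.5% of all tested genes. No member was called there by edgeR or by DESeq2, with 1 member at an unadjusted p under 0.05, against 12.7% of all tested genes, and 0.0473% of all tested genes were called. At day 14 and passage 2, Igfbp2 and Igfbp7 were the 2 members that did not overlap, against 11.5% of all tested genes. There 3 members had an unadjusted p under 0.05, against 6.73% of all tested genes, and DESeq2 called none.

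At day 14 the Igf1r level was 136 ± 20.1 CPM in IR and 136 ± 27.4 CPM in sham organoids at passage 1, and 110 ± 7.77 CPM in IR and 108 ± 18.3 CPM in sham organoids at passage 2 (SD, n = 3). The 95% intervals of these Igf1r differences were −0.48 to 0.48 and −0.46 to 0.52 on the log2 scale. For Igf2r the levels were 125 ± 6.41 CPM in IR and 120 ± 15.2 CPM in sham organoids at passage 1, and 103 ± 11.7 CPM in IR and 76.9 ± 21.1 CPM in sham organoids at passage 2. Insr was 31.5 ± 6.59 CPM in IR and 34.3 ± 3.51 CPM in sham organoids at passage 1, and 21.5 ± 4.85 CPM in IR and 25.8 ± 4.03 CPM in sham organoids at passage 2. The 95% intervals of these Igf2r and Insr differences also included 0.

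Whether the IR difference itself depended on passage or day was tested by the interactions, and no member was called in the 4 interactions. At day 14, the IR difference of Igfbp3 at passage 2 minus that at passage 1 was −2.24 (SE 0.77, 95% interval −3.83 to −0.65, adjusted p = 0.516), and −3.58 (adjusted p = 0.0627) without passage 2 IR replicate 3. For Igfbp5 the same contrast was 2.77 (adjusted p = 0.623, SE 1.18), for Igfbp4 1.74 (adjusted p = 0.694, SE 0.80, and 0.97 without the same library) and for Igfbp2 −2.45 (adjusted p = 0.695, SE 1.14). These 4 members had an unadjusted p under 0.05 in that interaction, against 6.9% of all tested genes, DESeq2 called none, and 0% of all tested genes were called. In the interaction of IR with passage at day 90, and with day at passage 1 and at passage 2, 0 members had an unadjusted p under 0.05 and DESeq2 called none. In these 3 interactions 0%, 0.0189% and 0.00947% of all tested genes were called, and 3.85%, 8.11% and 5.14% had an unadjusted p under 0.05.

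Passage 2 was set against passage 1 within each day and treatment, and no member was called. The IR organoids of day 14 had 79.1, 17.9 and 142 CPM of Igfbp5 at passage 2, against 0.962, 3.78 and 17.8 CPM at passage 1, a log2 fold change of 3.32 (SE 0.93, 95% interval 1.38 to 5.26, adjusted p = 0.0789). It was called by DESeq2 (adjusted p = 0.0417) and without IR replicate 3 of passage 1 (5.34, adjusted p = 0.0388), and it was lowest without IR replicate 3 of passage 2 (2.58, adjusted p = 0.306). The passages did not overlap for 6 of the 8 members in these IR organoids, against 17.2% of all tested genes. Igfbp4 (1.65, SE 0.60) and Igfbp5 were higher at passage 2, and Igfbp7 (−0.80, SE 0.49), Igf1r (−0.31, SE 0.24), Igf2r (−0.28, SE 0.21) and Insr (−0.59, SE 0.27) were lower in all 3 libraries. These 6 members had adjusted p-values of 0.0789 to 0.632, 3 of the 8 had an unadjusted p under 0.05, against 14.1% of all tested genes, and 1.38% of all tested genes were called.

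In the sham organoids of day 14, Igfbp2 had 29.0, 47.2 and 34.9 CPM at passage 2, against 5.40, 7.57 and 7.70 CPM at passage 1. The passages did not overlap, and the log2 fold change was 2.40 (SE 0.73, 95% interval 0.88 to 3.92, adjusted p = 0.133), which was called in a fit of only these 2 groups (adjusted p = 0.00246). Igfbp7 had a log2 fold change of −1.68 (adjusted p = 0.157, SE 0.53), which was −2.12 and called without passage 1 sham replicate 1 (adjusted p = 0.0435). The passages of Igfbp7 overlapped through that library. Igfbp3 (1.45, SE 0.57), Igf2r (−0.64, SE 0.21) and Insr (−0.41, SE 0.27) also had passages that did not overlap. With Igfbp2, 4 of 8 members did not overlap, against 17% of all tested genes, and 1.18% of all tested genes were called. By edgeR 4 members had an unadjusted p under 0.05, against 11.4% of all tested genes, and DESeq2 called none. At day 90 the smallest adjusted p of a member was 0.532 in IR and 0.433 in sham organoids, where 0% and 1.36% of all tested genes were called. There 0 members had an unadjusted p under 0.05, against 10.1% of all tested genes in IR and 14% in sham organoids, and DESeq2 called none. The passages of day 90 did not overlap for 0 members in IR and for 1, Insr, in sham organoids, against 14.8% and 20.9% of all tested genes.

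Day 90 was set against day 14 in the same way, and no member was called. Igfbp5 was lower at day 90 in every library of 3 of the 4 comparisons. In sham organoids of passage 1 it had 23.1, 34.9 and 54.3 CPM at day 90, against 305, 75.7 and 124 CPM at day 14, a log2 fold change of −2.13 (adjusted p = 0.338, SE 0.76). In sham organoids of passage 2 it had 7.79, 73.3 and 43.9 CPM at day 90, against 133, 281 and 320 CPM at day 14, a log2 fold change of −2.55 (adjusted p = 0.132, SE 0.76). In IR organoids of passage 2 it had 17.9, 0.836 and 6.89 CPM at day 90, against 79.1, 17.9 and 142 CPM at day 14, a log2 fold change of −3.16 (adjusted p = 0.0926, SE 0.87). The days did not overlap in these 3 comparisons. In IR organoids of passage 2 they nearly touched, with 17.9 CPM in 1 library of each day, from 60 counts at day 90 and 27 at day 14. This last comparison was called without day 90 IR replicate 1 (−4.37, adjusted p = 0.0335) and was −2.42 (adjusted p = 0.389) without day 14 IR replicate 3. Igfbp2 in sham organoids of passage 2 had a log2 fold change of −1.34, which was −3.45 and called (adjusted p = 0.0159) without day 90 sham replicate 1, the library where it was high.

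In IR organoids, Igfbp3 had a log2 fold change of day 90 over day 14 of −1.33 (adjusted p = 0.614, SE 0.55) at passage 1 and −1.71 (adjusted p = 0.175, SE 0.57) at passage 2, with libraries that overlapped. The value at passage 2 was −0.35 (adjusted p = 0.882) without day 14 IR replicate 3, and the value at passage 1 was −2.21 (adjusted p = 0.424) without day 90 IR replicate 3. In IR organoids of passage 2, Igfbp7 (1.14, SE 0.49), Insr (0.68, SE 0.27) and Igf1r (0.57, SE 0.23) were above their day 14 levels and overlapped. Insr in sham organoids of passage 1 did not overlap between the days, with a log2 fold change of −0.69 (adjusted p = 0.399, SE 0.27). Unadjusted p-values under 0.05 were found for 1 member in IR organoids of passage 1, 5 in IR organoids of passage 2, 2 in sham organoids of passage 1 and 2 in sham organoids of passage 2, and DESeq2 called none. The shares of all tested genes with such a p were 6.82%, 13.5%, 9.7% and 13.7% in the same order, and 0.17%, 0.435%, 0% and 0.426% were called. The days did not overlap for 1, 1, 2 and 2 members in that order, against 13%, 14.5%, 15.5% and 22.3% of all tested genes.

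Other genes of the pathway were taken from 5 lists with 54 genes, of which 42 passed the filter. Averaged over the 4 strata, 1 of the 42 was higher and 4 were lower in IR organoids, against 6.09% of all tested genes higher and 4.91% lower. These 5 of 42 are near the share of all tested genes called, 11%. The lists had a median log2 fold change of 0.05, against 0 over all tested genes. No gene of the lists was called in a single stratum. Htra1, a secreted serine protease that cleaves binding proteins, and Pappa, which encodes PAPP-A, were tested and not called, nor was Igfals (0.36, SE 0.36). Among 9 adaptors and negative regulators of the receptors, Ptpn1, a phosphatase that dephosphorylates the insulin receptor, was lower in IR (−0.39, SE 0.09, adjusted p = 0.0107). Among 18 genes of the PI3K, AKT and mTOR kinases, Inppl1, a phosphatase of phosphoinositides, was higher (0.44, SE 0.11, adjusted p = 0.0124).

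Among 12 tested FOXO factors and FOXO-induced genes, which insulin and IGF signalling represses, 3 were lower and 0 higher in IR organoids, against 4.91% lower and 6.09% higher over all tested genes, with a median of −0.26. Fbxo32, a ubiquitin ligase subunit known from muscle atrophy, was 170 ± 38.4 CPM in IR and 417 ± 61.8 CPM in sham organoids at day 14 and passage 1, and 81.6 ± 21.3 CPM in IR and 204 ± 85.2 CPM in sham organoids at day 90 and passage 1 (SD, n = 3). At passage 2 Fbxo32 was 317 ± 71.9 CPM in IR and 342 ± 121 CPM in sham organoids at day 14, and 243 ± 20.7 CPM in IR and 349 ± 126 CPM in sham organoids at day 90. Its mean difference was −0.81 (adjusted p = 0.00192, SE 0.15). Sesn1, a stress-induced inhibitor of mTORC1, was lower in IR (−0.77, adjusted p = 0.0168, SE 0.20), as was Bcl6, a transcriptional repressor (−0.26, adjusted p = 0.0443, SE 0.08). Sesn1 is also a target of p53.

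Among the same 42 genes, 2 were lower at passage 2 than at passage 1 at day 14 in both treatments, where 1.38% of all tested genes were called in IR and 1.18% in sham organoids. Grb10, an adaptor that inhibits the insulin and IGF1 receptors, averaged 1.6 ± 0.464 CPM at passage 2 and 10.3 ± 3.99 CPM at passage 1 in IR organoids (−2.76 on the log2 scale, adjusted p = 0.0131, SE 0.53). In sham organoids Grb10 averaged 0.765 ± 0.866 CPM at passage 2 and 8.21 ± 2.54 CPM at passage 1 (−3.44, SE 0.62, adjusted p = 0.00612). Pdk4, a kinase that inhibits pyruvate dehydrogenase, had log2 fold changes of −2.34 (adjusted p = 0.0418, SE 0.57) in IR organoids and −2.41 (adjusted p = 0.0251, SE 0.52) in sham organoids. Both genes are low, and the passage 2 values of Grb10 are near the level of 3 counts.

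Across the 24 libraries, the genes whose log2 CPM ran most like that of a member were named by Pearson correlation, as a description of libraries that share groups and depth. For Igfbp5 they were Spats2l (0.906) and Setbp1 (0.906), and for Igfbp7 Id3 (0.922), a target of BMP signalling, and Serpinb6b (0.898). For Igfbp2 they were Six2 (0.802) and Cd34 (0.801), for Igfbp3 Nipal1 (0.820) and Gsto1 (0.815), and for Igfbp4 Tns3 (0.850) and Ddx58 (0.816), which encodes the viral RNA sensor RIG-I. Tns3 is not next to Igfbp4 in the RefSeq order but next to Igfbp3. For the receptors they were Cpd (0.834) and Slc6a6 (0.833) for Igf1r, Pdcd6ip (0.848) for Igf2r, and Asxl2 (0.830) and Ocln (0.756) for Insr. Among the members, Igfbp7 ran with Igf2r (0.74) and Igf1r (0.72), and Igfbp5 ran against Igf1r (−0.62).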

How the data were processed

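RNA of 24 organoid libraries was sequenced from QuantSeq libraries, which per the labels' protocols are made by a 3′ kit. Such counts do not scale with the length of a gene and do not separate isoforms with the same 3′ end. The deposited files, 1 per library, hold the authors' raw counts of reads on Ensembl genes. Per the submitters' processing notes, bcl2fastq and the build GRCm39 were used, and they name no aligner, annotation or strand setting. Overlapping and antisense genes could therefore have shared reads. Each file held 47643 genes and 5 lines for reads outside genes, left out of the library sizes. Reads on no gene were 11.5% to 26.5% of a library. Replicate numbers are those of the sample titles, and for some day 90 IR libraries the number in the name of the deposited file is another, so the block, the pairing check and the IR replicates named at day 90 rest on the titles. Of the identifiers 47224 matched a symbol in a reference annotation used for names only.

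The test was edgeR's quasi-likelihood test (edgeR 4.0.16, R 4.3.3). It used TMM scaling, edgeR's default expression filter given the 8 groups, 1 mean per group over all 24 libraries and Benjamini-Hochberg adjustment over 10563 genes, two-sided, called at 0.05. The SE was worked back from the F statistic. Group values are CPM with TMM factors. Correlations used log2 CPM with a prior count of 2. No replicate pair agreed within sampling noise (chi-square per degree of freedom 2.07 to 26.7). Counting intervals are exact and cover counting error only. The alternatives were DESeq2 1.42.0, other scalings, filters and samples in the fit, the replicate number as a block, the share of Gm42418 as a covariate, ribosomal RNA genes left out and each library left out. All 9 members were named, then the called genes of the other lists, at most 3 per list and comparison, and the 2 genes most like each member, of which 1 is not reported here. The members and lists were chosen with earlier results of these data known. Scripts were tested on simulated counts.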

Additional observations from a re-analysis of the deposited data

How the results depend on the processing

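The calls of the mean of the 4 strata held for Igfbp5 in all alternatives run, for Igfbp2 and Igfbp7 in all but those given beside them. The number of members called became 2 with DESeq2 and 2 in a fit of only the compared groups for IR against sham at day 14 and passage 1. For passage in IR organoids at day 14 it became 1 with DESeq2, and for passage in sham organoids at day 14 it became 1 with only the compared groups. All genes called at day 14 and passage 1 were 123 of 10563 with DESeq2 and 81 of 9208 with only the compared groups, against 36 in the main test. For passage at day 14 they were 261 of 10563 with DESeq2 in IR organoids, against 146 in the main test. In sham organoids they were 156 of 9237 with only the compared groups, against 125. With no filter 22785 genes entered, the members called were 3 in each single IR stratum except 4 at day 90 and passage 2, and 5 for the mean. They were then 4 for IR by passage at day 14, 2 for IR by day at passage 1, 3 for each passage comparison at day 14, and 1 at passage 1 and 3 at passage 2 for each day comparison. Without the filter, all genes called were 460, 200, 465 and 1044 in the single IR strata and 1642 for the mean. The main test called 36, 2, 5, 520 and 1162. In the other comparisons named, all genes called without the filter were 180 to 697, each above the number in the main test. Igfbp5 at day 14 and passage 2 was −1.59 in both fits, with an adjusted p of 5.48e-11 without the filter and 0.73 in the main test. At an equal fold change, the lower p comes from a smaller estimated spread. The extra calls without the filter are therefore not taken as support. With the Gm42418 covariate, 1 member was called for day in IR organoids of passage 2, where all genes called were 97, against 46 in the main test. Leaving out 1 library gave 0 to 1 called members (day 14, passage 1), 0 to 3 (day 90, passage 2), 3 to 5 (mean), 0 to 1 (each passage comparison at day 14), 0 to 1 (day in sham, passage 2) and 0 to 3 (day in IR, passage 2). Of the alternatives added after the data were seen, the mean had 5 called members without day 14 passage 2 sham replicate 1 and IR replicate 3, where passage in sham organoids at day 14 had 1, and 1 without day 90 passage 2. Directions reversed for the values that follow, and the cause was not tested. For Igf1r at day 14 and passage 1 the value was 0 with DESeq2 and −0.01 with a 5 CPM filter, with only the compared groups and without ribosomal RNA genes, and −0.14 to 0.16 without 1 library. Igf2r at day 90 and passage 1 was −0.05 with total counts and with the covariate, and −0.02 to 0.32 without 1 library. With the covariate Igfbp2 was 0.08 at day 14 and passage 1, and Igfbp4 was 0.18 and 0.36 at day 90, passages 1 and 2. Without 1 library, ranges that cross 0 were −0.05 to 0.12 (Igf2r, day 14, passage 1), −0.31 to 0.22 (Igfbp2, day 14, passage 1), −1.03 to 0.09 (−1.53 without the pair of libraries named above), −1.67 to 0.04 and −0.09 to 0.16 (Igfbp4, Igfbp3 and Igf1r, day 14, passage 2), −0.38 to 0.92 (Igfbp3, day 90, passage 1), −2.41 to 0.24 and −0.47 to 0.06 (Igfbp2 and Igfbp4, day 90, passage 2) and −0.10 to 0.34 (Igfbp3, mean). The Igfbp3 mean was −0.07 without the pair of libraries and −0.32 without day 14 passage 1. Total-count scaling moved the median of all genes by −0.19 at day 90 passage 1 and −0.12 at passage 2, and by 0.23 and 0.24 for day in sham organoids. The replicate block left each count as it was, with 1 called at day 14 and passage 1, 3 for the mean and 0 elsewhere. In 0 of 12 comparisons did all same-numbered libraries deviate together (correlations over 0.1), so the numbers were not taken as pairs, although single correlations between the passages of day 90 reached 0.39 in IR and 0.38 in sham organoids. Depth limits Igfbp6 and the ligands, and the low IR values of Igfbp5.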
